A study of Bos taurus with 12 samples.

Results

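The splicing and polyadenylation factors described here are the proteins that cut introns out of a primary transcript, join its exons, and cleave and tail its end. They were chosen by gene symbol: every probe set of the array with a single symbol starting with SRSF, SFRS, SF3A, SF3B, SNRP, HNRNP, PRPF, CPSF, CSTF or U2AF was taken, whatever its values. The rule found 93 probe sets of 62 genes among 24016 probe sets other than controls, of which 13292 carried 1 gene symbol. Of the 93, 79 probe sets of 58 genes were bright enough to be tested. The remaining 14 lay at means of 1.58 to 3.53 over the 12 arrays (log2 values), below the lowest mean that was tested, 3.56. PRPF38A, PRPF6, SNRPA and CSTF2 had no tested probe set.

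Mammary tissue came from 6 dry Holstein cows at 3 weeks before calving, with a labelled lactation number of 3 in cow 1, 2 in cow 2 and 1 in cows 3 to 6, although the study's methods call the animals multiparous, and every explant had spent 2 h in culture with insulin, with hydrocortisone and with BrdU, a thymidine analogue that marks cells copying their DNA. From each cow, epithelium and intralobular stroma were captured by laser microdissection, and the RNA of both was amplified and measured, each on its own Affymetrix Bovine GeneChip, so that the 12 arrays form 6 pairs within animals. The stroma was a mixture of cell types in which blood vessels and visible immune cells were avoided, and more slides were pooled for a stromal than for an epithelial capture. All differences below are stroma minus epithelium within the cow on the log2 scale of the deposited RMA values, so that a value below 0 means a higher signal in epithelium, and an adjusted p is from limma with cow as a block and is adjusted for all 10087 tested probe sets (Benjamini-Hochberg).

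An intron is removed by the spliceosome, which is assembled on each transcript from small nuclear ribonucleoproteins, most of them an RNA held in a ring of Sm proteins. The U1 particle marks the donor site, U2AF and the U2 particle with its SF3A and SF3B complexes mark the acceptor site and the branch point, and the PRPF proteins carry the joined particles through activation and catalysis. SR proteins mostly promote the use of an exon, hnRNP proteins often oppose it, and the CPSF and CSTF complexes with their partners recognise the polyadenylation signal and cut the transcript there. Splicing and cleavage are needed in every nucleated cell, and the relative amounts of these factors influence which exons and which transcript ends a cell uses.

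The captures carried the markers of their labels. Of 12 tested luminal epithelial genes 11 were higher in epithelium and none in stroma, with an array mean over the list of 6.96 to 7.84 in epithelium and 4.23 to 5.57 in stroma. All 9 tested fibroblast genes (3.51 to 5.85 in epithelium, 9.57 to 10.3 in stroma) and all 4 tested endothelial genes (2.37 to 3.24 and 6.39 to 8.41) were higher in stroma, so endothelial RNA was present in the stromal captures. Of 5 tested leukocyte genes 1, the immunoglobulin heavy chain gene IGHM, was higher in stroma, with list means of 4.96 to 5.71 in epithelium and 6.97 to 8.10 in stroma, and none of 5 myoepithelial genes passed in either direction. Of 2 tested proliferation genes BIRC5 was higher in epithelium. The signal of the polyadenylated control RNAs added to the samples was 4.53 ± 1.08 in epithelium and 7.02 ± 2.67 in stroma (mean ± SD, n = 6), and was highest on the stromal arrays of cows 4, 5 and 6, at 8.27, 9.99 and 9.45. The gap in log2 signal between the control probe sets for the end and the start of the GAPDH transcript was 2.67 ± 0.96 in epithelium and 3.35 ± 0.90 in stroma, and 5 of 6 cows had the larger gap in stroma, whereas the same gap for actin was 0.64 ± 0.14 and 0.42 ± 0.30 and was larger in stroma in 2 of 6 cows. The part of cell mixture and RNA quality in the results below was not tested, and in captures of many cells fewer cells of a type and less RNA per cell cannot be told apart.

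Few splicing and polyadenylation factors passed the test between the tissues. A single probe set of the 79, one of the 2 for CPSF6, passed the threshold as higher in epithelium, against 4.7% of all tested probe sets, and 0 passed as higher in stroma, against 4.51%, where 9.21% of all passed in either direction. At an unadjusted p under 0.05 by limma, 9 were higher in epithelium, where the background was 14.6%, and 0 in stroma, where it was 8.85%. In all, 62 of 79 probe sets had a lower mean in stroma (78.5%, against 58.7% of all tested), 12 were lower in stroma in each of the 6 cows (15.2%, against a background of 9.31%), and 0 were higher in stroma in each cow (background 7.02%). The median difference was −0.37 (quartiles −0.66 and −0.02), beside −0.18 (quartiles −0.82 and 0.39) over all tested probe sets, so that the middle of these genes lay 0.19 log2 below that of the array. When the median of the tested probe sets was subtracted from every array, called centring below, which moved the median of all of them by 0.17 to −0.01, the factors' median was −0.20 and 53 of 79 had a lower mean in stroma, beside 50.4% of all. When cows 5 and 6 were left out, it was −0.18, beside −0.13 over all tested probe sets, and again 53 of 79 had a lower mean in stroma, beside 55.9% of all. The factors were brighter than the array as a whole, with a median level of 7.03 against 5.03, and among the brightest 5000 probe sets their median difference was −0.41 beside −0.31 over all 5000, with 54 of 63 lower in stroma, beside 64.7% of all.

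Large differences were also fewer than over the whole array, whose probe sets were dimmer (median level 5.03 against 7.03) and less precise (median SE 0.49 against 0.42). The part of brightness in this was not tested. A difference below −1, which is more than 2-fold higher in epithelium, was measured for 9 of the 79 probe sets (11.4%, against 19.6% of all tested), and 0 had a difference above 1, which 11.0% of all tested probe sets had. The range ran from −1.56 for a probe set of SRSF11 to 0.86 for one of PRPF18. The 95% interval of a difference had a median half-width of 0.96, and 7 intervals lay wholly within 1 log2 of 0 on either side, those of SRSF5, SRSF7, HNRNPU, 1 probe set each of HNRNPF and HNRNPK, and both of HNRNPDL. The intervals of the other 72 reached past a 2-fold difference in one direction or both. Values spread more in stroma than in epithelium for 60 of 79 probe sets, with a median SD of 0.92 and 0.55 log2, and the spread was larger in stroma for 67.6% of all tested probe sets.

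**Figure D1:**
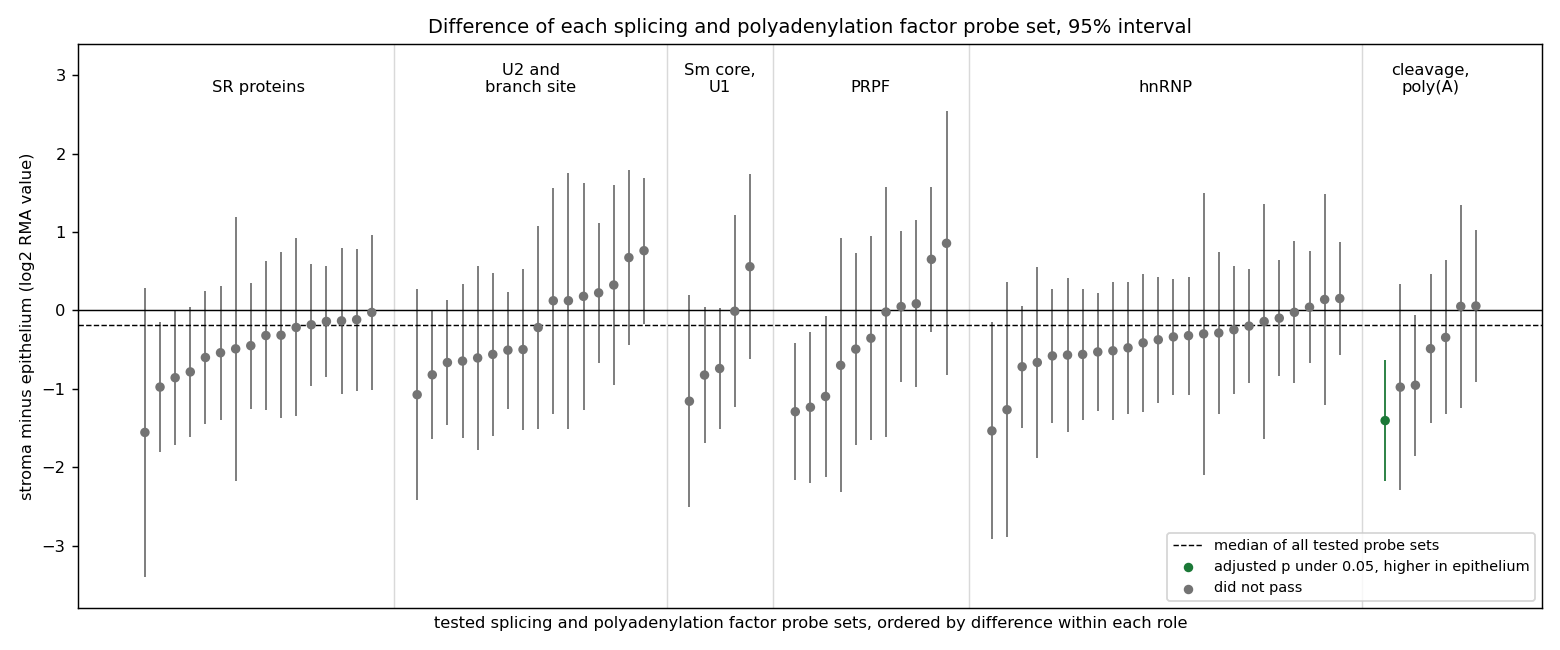
Stroma minus epithelium difference (log2 RMA value, vertical axis) of each of the 79 tested probe sets with its 95% interval from limma, ordered within 6 groups by role; the dashed line is the median of all 10087 tested probe sets, −0.18. All 16 SR probe sets lie below 0, the other groups reach both sides, and the single green point is the CPSF6 probe set at −1.40.

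CPSF6 is a subunit of cleavage factor I, the complex that binds upstream of the cleavage site and influences which polyadenylation site is used. Its probe set Bt.27146.1.A1_at read 5.03, 4.51, 3.92, 4.43, 4.73 and 5.38 in the epithelium of cows 1 to 6 and 3.01, 2.70, 2.86, 3.51, 3.73 and 3.76 in their stroma. Every epithelial value was above every stromal one, a separation seen in that direction for 2.78% of all tested probe sets and for 2 of the 79, while the opposite separation was seen for 3.38% of all and for 0 of the 79. The difference was −1.40 (SE 0.34, 95% interval −2.17 to −0.63, adjusted p = 0.0352), 2.65-fold higher in epithelium and in the same direction in 6 of 6 cows. These were low signals, since 3 of the 6 stromal values lay below the median of their array, so the size of the fold depends on the background of the array. The call was lost without any 1 of cows 1, 2, 3, 4 and 6, with adjusted p of 0.111, 0.0983, 0.0619, 0.0650 and 0.0848 in turn. It held without cow 5 (0.0479), but not without cows 5 and 6 (0.108) or after centring the arrays (0.0681). Over all tested probe sets, calls higher in epithelium fell too, from 474 to between 268 and 404 with 1 cow left out. Over the 14 alternatives in which it was tested adjusted p ran from 0.0136 to 0.111, with 7 under the threshold, while the difference stayed between −1.50 and −1.23.

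The second CPSF6 probe set, Bt.1004.1.A1_at, was the brighter of the pair. It read 6.98, 7.02, 7.45, 7.92, 7.85 and 7.61 in the epithelium of cows 1 to 6 and 7.19, 7.06, 6.55, 3.80, 7.12 and 7.25 in stroma. The stromal value of cow 4 stood far below the rest, 4 of 6 cows were lower in stroma, and the difference of −0.98 (SE 0.58, −2.29 to 0.33) did not pass (adjusted p = 0.349). Without cow 4 the difference was −0.35. The gene's probe sets thus pointed the same way, but the call rested on the dim one, and with the brightest probe set standing for each gene 0 of 58 genes passed in either direction, against 4.54% of 5244 genes for epithelium and 4.46% for stroma.

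The other cleavage factors did not pass. CSTF3, the scaffold subunit of the cleavage stimulation factor and the brightest of the group, read 7.57 at the lowest, 7.94 at the median and 8.96 at the highest in epithelium and 6.41, 7.07 and 7.65 in stroma. In each of the 6 cows stroma was lower, with overlapping ranges, and it differed by −0.95 (SE 0.40, −1.86 to −0.05, adjusted p = 0.190), a value of which cow 3 alone gave −2.55. CPSF1, the largest subunit of the complex that recognises the polyadenylation signal, had the highest difference of the group at 0.06 (−0.92 to 1.03), with 4.09 ± 0.32 in epithelium and 4.15 ± 1.10 in stroma. CPSF2 lay at −0.49, CPSF3, the endonuclease that makes the cut, at −0.34 and CPSF4, which contacts the signal, at 0.05. In all, 5 of the 7 tested probe sets had a lower mean in stroma, with a median difference of −0.49.

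**Figure D2:**
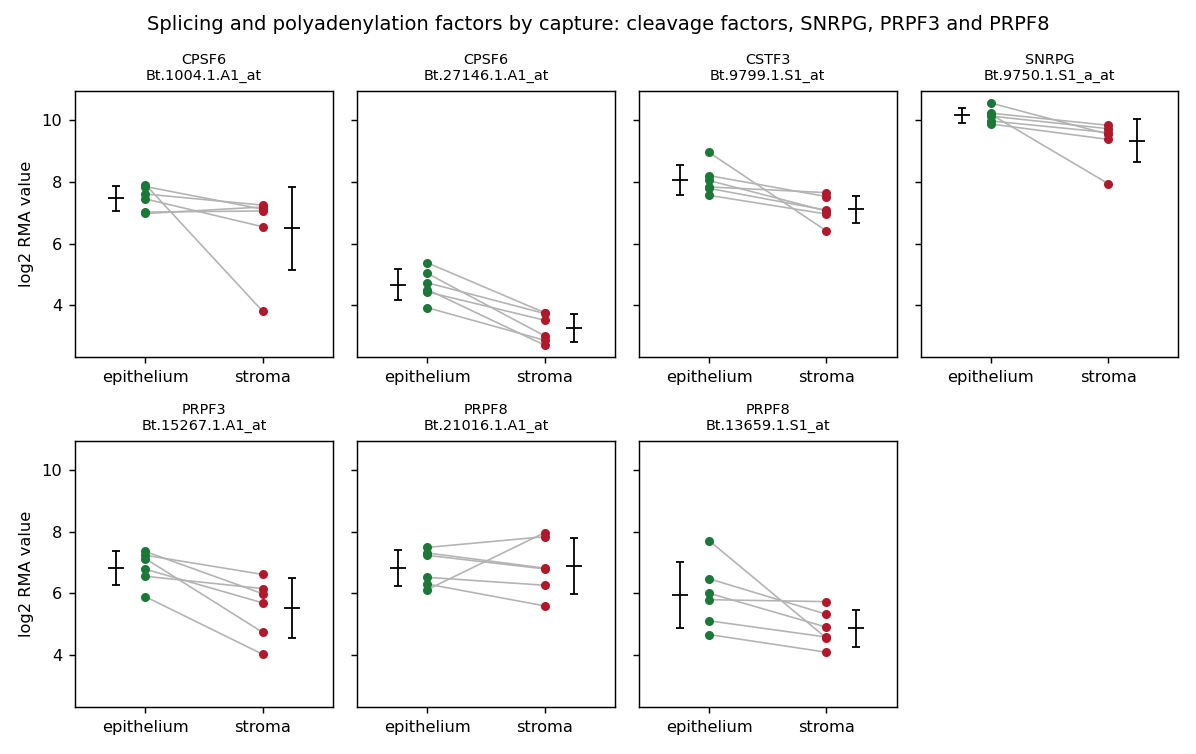
Log2 RMA value of the probe sets of CPSF6, CSTF3, SNRPG, PRPF3 and PRPF8 in each capture; each grey line joins the epithelium (green) and stroma (red) of 1 cow, and the bars beside the points give the mean ± SD over 6 cows. The CPSF6 probe set Bt.27146.1.A1_at and SNRPG are the panels without overlap, and a single cow makes most of the difference of CPSF6 Bt.1004.1.A1_at.

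Among the Sm proteins, which form the ring on most spliceosomal RNAs, SNRPG was the brightest and the other probe set of the 79 whose arrays did not overlap. SNRPG read 10.57, 9.88, 9.98, 10.24, 10.14 and 10.20 in the epithelium of cows 1 to 6 and 9.55, 9.38, 9.61, 9.84, 9.73 and 7.95 in stroma. All 6 cows were lower in stroma, by 0.38 to 1.01 log2 in 5 of them and by 2.25 in cow 6, and the difference of −0.82 (SE 0.38, −1.69 to 0.04) did not pass (adjusted p = 0.236). Without cow 6 it was −0.54. SNRPD2, another Sm protein, was likewise lower in the stroma of 6 of 6 cows at −0.74 (adjusted p = 0.234), with overlapping ranges. SNRPD3, also of the ring, had the highest difference of this group at 0.56 (−0.62 to 1.74). It read 4.08, 4.82 and 5.68 (lowest, median and highest) in epithelium and 4.54, 5.07 and 7.62 in stroma, was higher in the stroma of 3 cows, and differed by 0.08 without cow 5.

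SNRPC, the U1 protein that steadies the pairing of U1 with the donor site, had the lowest difference of the 5 tested probe sets of Sm core and U1 proteins. It read 6.75, 7.89 and 8.91 (lowest, median, highest) in epithelium and 5.12, 6.72 and 8.26 in stroma. The ranges overlapped widely, 5 of 6 cows were lower in stroma, and the difference was −1.16 (SE 0.60, −2.51 to 0.19, adjusted p = 0.281). SNRPB, another Sm protein, lay at −0.01. The group's median of −0.74 rests on these 5 probe sets, 0 of which passed.

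The proteins of the U2 particle and the branch site lay on both sides of 0: 9 of 16 tested probe sets had a lower mean in stroma, 0 passed in either direction, and their median was −0.36 (quartiles −0.62 and 0.19). SF3B1, which clamps the branch point helix and is the largest subunit of SF3B, had 4 tested probe sets with differences of −0.50 to −0.82. The brightest, Bt.10359.1.S1_at, read 10.44, 10.67 and 10.73 (lowest, median, highest) in epithelium and 9.60, 10.09 and 10.72 in stroma. Epithelium was tightly grouped, with an SD of 0.10 against 0.38 in stroma, and the difference of −0.51 (SE 0.33, −1.25 to 0.24, adjusted p = 0.395) was in the same direction in all 6 cows, as was that of Bt.13529.1.S1_at at −0.66 (−1.46 to 0.13, adjusted p = 0.293). Bt.27429.2.A1_at differed by −0.82 (−1.64 to −0.00, adjusted p = 0.213, 5 of 6 cows lower) and Bt.27429.1.S1_at by −0.50 (−1.53 to 0.53, adjusted p = 0.552, 3 of 6), the last of which lay at 0.17 without cows 5 and 6.

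SF3B5, a small subunit of the same complex, was lowest in the group. It read 5.53, 6.35 and 7.61 (lowest, median, highest) in epithelium and 3.48, 5.85 and 6.53 in stroma, where cows 5 and 6 were far below the rest. Its difference of −1.07 (SE 0.59, −2.42 to 0.27, adjusted p = 0.314) shrank to −0.08 when those cows were left out. At the other end, U2AF1, the subunit that reads the last bases of the intron, read 2.88, 4.96 and 5.86 in epithelium and 4.37, 5.98 and 6.41 in stroma. It was higher in the stroma of 5 of 6 cows, with overlapping ranges, by 0.76 (SE 0.41, −0.17 to 1.69), and its adjusted p of 0.303 was the lowest of any splicing or polyadenylation factor that lay higher in stroma. SNRPA1, a protein of the U2 particle, lay at 0.67 (adjusted p = 0.452), and SF3A1, SF3A2, SF3B2, SF3B4 and U2AF1L4 between 0.12 and 0.32.

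Of the PRPF proteins, 7 of 11 tested probe sets had a lower mean in stroma and 3 were lower in all 6 cows, and 0 passed. PRPF3, which belongs to the U4/U6 particle, read 7.36, 7.12, 6.78, 6.55, 5.89 and 7.23 in the epithelium of cows 1 to 6 and 5.99, 4.73, 5.69, 6.15, 4.02 and 6.61 in stroma. Each cow was lower in stroma, although the ranges overlapped, and cow 5 had the lowest value in both tissues. At −1.29 (SE 0.38, −2.16 to −0.42, 2.45-fold higher in epithelium) its adjusted p of 0.0735 was the second lowest of the 79, and it ran from 0.0678 to 0.183 over the alternatives. PRPF4, its partner in that particle, read 4.55, 6.61 and 7.85 (lowest, median, highest) in epithelium and 3.80, 6.26 and 7.93 in stroma, and its difference of −0.49 (SE 0.54, −1.72 to 0.73, adjusted p = 0.629) was lower in stroma in 4 of 6 cows.

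PRPF8, the scaffold at the catalytic centre, was the gene whose tested probe sets differed most from each other, by 1.15 log2. Bt.21016.1.A1_at read 6.12, 6.87 and 7.49 (lowest, median, highest) in epithelium and 5.59, 6.80 and 7.97 in stroma, a difference of 0.05 (−0.91 to 1.01). Bt.13659.1.S1_at read 4.66, 5.90 and 7.71 in epithelium and 4.09, 4.74 and 5.73 in stroma, was lower in stroma in every one of the 6 cows and differed by −1.10 (SE 0.45, −2.13 to −0.07, adjusted p = 0.186), of which cow 3 gave −3.16. Without cow 3 it was −0.68. PRPF38B split likewise. Its brightest probe set, Bt.15677.1.A1_at, was the brightest of the PRPF group and read 7.39, 8.75 and 9.10 in epithelium and 5.32, 8.52 and 9.68 in stroma, a difference of −0.35 (−1.65 to 0.95) that turned to 0.25 without cow 5, while Bt.10692.1.S1_at, lower in stroma in each cow, lay at −1.23 (SE 0.42, adjusted p = 0.115).

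PRPF18, which acts in the joining of the exons, had its tested probe sets on both sides of 0, at −0.02 (−1.62 to 1.58) for Bt.17154.2.A1_at and 0.86 (SE 0.74, −0.83 to 2.54, adjusted p = 0.530) for Bt.17154.1.S1_at. The latter, the highest difference of all 79, read 1.63, 3.84 and 4.55 (lowest, median, highest) in epithelium and 2.18, 3.82 and 7.55 in stroma and was higher in the stroma of 3 cows. Its medians were nearly equal, and without cow 5 the difference was 0.26.

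**Figure D3:**
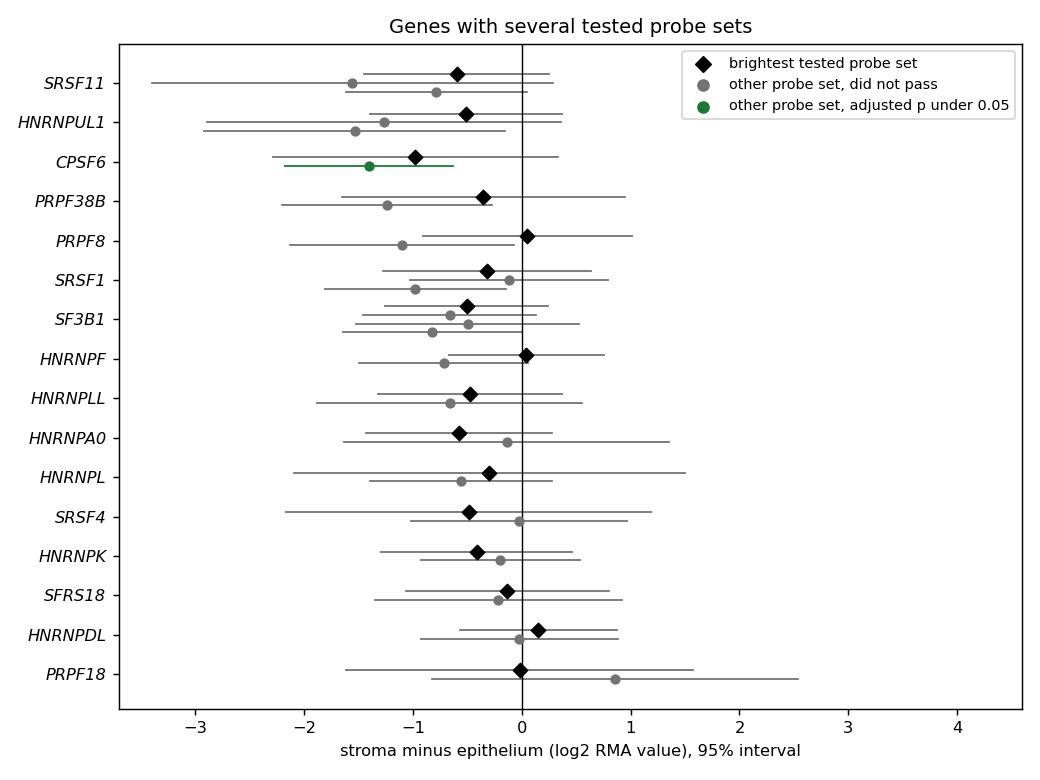
Stroma minus epithelium difference (log2 RMA value, horizontal axis) with its 95% interval for every tested probe set of the 16 genes that had several; diamonds mark the brightest probe set of a gene. PRPF8, HNRNPF, HNRNPDL and PRPF18 have probe sets on both sides of 0, and CPSF6 is the gene with 1 probe set past the threshold (green) and 1 that did not pass.

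SR proteins were the group whose probe sets all lay on one side. Each of the 16, from 10 genes, had a lower mean in stroma, with a median of −0.38 (quartiles −0.65 and −0.17), 2 of them were lower in all 6 cows and 0 passed. The count of those lower in stroma was 15 after a further quantile normalization, 12 after centring, 11 without cows 5 and 6, and 13 to 16 when 1 cow at a time was left out. The share of all tested probe sets lower in stroma was 56.3%, 50.4%, 55.9% and 57.5% to 59.1% in these settings in turn. SRSF1, the founding SR protein, had 3 probe sets. Bt.864.2.S1_a_at, the brightest of the group, read 10.33, 10.71 and 11.06 (lowest, median, highest) in epithelium and 8.57, 10.73 and 10.99 in stroma; the medians were nearly equal, and its difference of −0.32 (SE 0.42, −1.27 to 0.63, adjusted p = 0.692) was 0.04 without cow 6. Bt.864.1.A1_at differed by −0.12 (−1.02 to 0.79). The dimmest, Bt.864.2.S1_at, read 5.81, 6.23 and 6.39 in epithelium and 4.65, 5.08 and 6.00 in stroma, was lower in the stroma of 5 of 6 cows and differed by −0.98 (SE 0.37, −1.81 to −0.14, adjusted p = 0.147).

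SRSF11, an SR-related protein, held the lowest difference of all 79. Its probe set Bt.16306.1.A1_at read 5.51, 5.50, 7.50, 4.61, 5.02 and 5.08 in the epithelium of cows 1 to 6 and 3.66, 2.54, 3.28, 1.96, 7.76 and 4.67 in stroma. In 5 cows stroma was lower, and in cow 5 the stromal value was higher than any epithelial one. The difference was −1.56 (SE 0.81, −3.40 to 0.29, adjusted p = 0.289), and without cow 5 it was −2.42 and passed (adjusted p = 0.0400), as it did without cows 5 and 6 at −2.92 (adjusted p = 0.0225), within a range over 14 alternatives of 0.0225 to 0.511. The brightest SRSF11 probe set, Bt.9041.1.S1_at, read 8.88, 9.10 and 9.80 (lowest, median, highest) in epithelium and 7.43, 8.78 and 9.52 in stroma, was lower in stroma in 6 of 6 cows and differed by −0.60 (SE 0.37, −1.45 to 0.25, adjusted p = 0.374), and Bt.29115.1.A1_at differed by −0.78 (−1.61 to 0.05, adjusted p = 0.239).

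Of the other SR proteins, SRSF10, which can repress as well as promote splicing, was lower in stroma in 6 of 6 cows at −0.86 (SE 0.38, adjusted p = 0.212). SRSF5 was the steadiest, at 8.82 ± 0.12 in epithelium and 8.68 ± 0.17 in stroma, and its interval of −0.85 to 0.57 bounds the difference within 2-fold. The same held of SRSF7, at −0.18 (−0.96 to 0.60). SRSF4 had the highest difference of the group at −0.03 (−1.02 to 0.97) for Bt.28464.2.S1_at, which read 6.05, 6.62 and 6.99 (lowest, median, highest) in epithelium and 5.42, 6.08 and 8.79 in stroma, and which lay above 0 after centring (0.15).

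**Figure D4:**
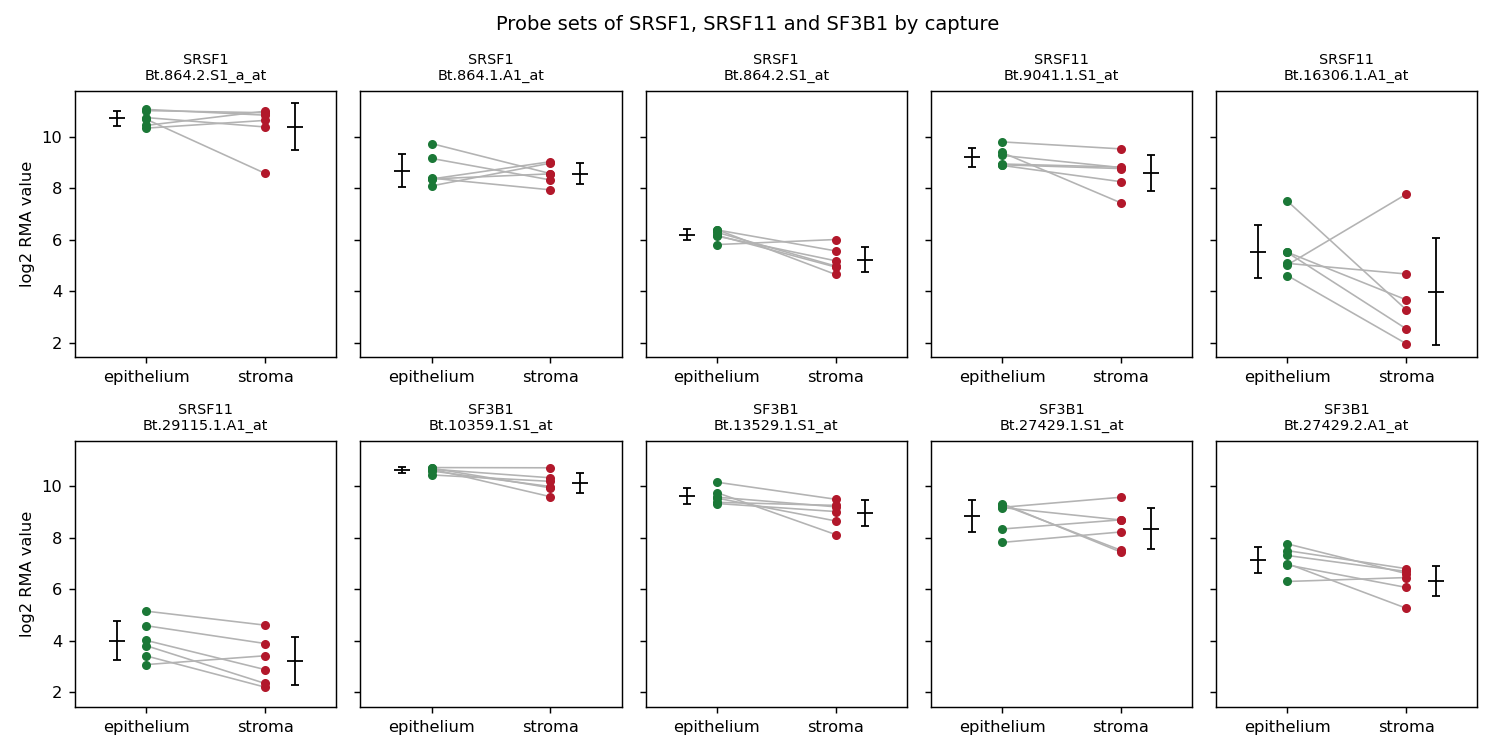
Log2 RMA value of the 10 probe sets of SRSF1, SRSF11 and SF3B1 in each capture; each grey line joins the epithelium (green) and stroma (red) of 1 cow, and the bars give the mean ± SD over 6 cows. Means are lower in stroma in each panel and ranges overlap in each; the stroma of cow 5 is the high point of SRSF11 Bt.16306.1.A1_at, and that of cow 6 the low point of SRSF1 Bt.864.2.S1_a_at.

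The hnRNP proteins, which coat nascent transcripts and often keep exons out, had 21 of 24 tested probe sets lower in stroma on the mean, with a median of −0.36 (quartiles −0.56 and −0.18), and 0 passed. HNRNPUL1, a relative of the scaffold protein HNRNPU, had 3 tested probe sets at −1.54, −1.27 and −0.51. The first of these, Bt.21035.1.S1_at, read 5.92, 6.62 and 7.75 (lowest, median, highest) in epithelium and 3.98, 4.94 and 7.16 in stroma. Stroma was lower in 5 of 6 cows and higher in cow 6, and the difference of −1.54 (SE 0.61, −2.92 to −0.15) did not pass (adjusted p = 0.168), nor did it without cow 6, where it was −2.09 (adjusted p = 0.0519).

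HNRNPF, which binds runs of G, had probe sets that parted. The brightest of the whole group, Bt.23314.1.A1_s_at, read 10.59, 10.90 and 11.04 (lowest, median, highest) in epithelium and 10.52, 10.84 and 11.27 in stroma, and its difference of 0.04 (−0.67 to 0.76) was bounded within 2-fold. Bt.23170.1.S1_at read 8.36, 8.74 and 9.57 in epithelium and 6.95, 8.42 and 8.83 in stroma, was lower in stroma in all 6 cows and differed by −0.72 (SE 0.34, −1.49 to 0.06, adjusted p = 0.249). HNRNPDL, a relative of the AU-rich element binding protein HNRNPD, lay at 0.15 (−0.57 to 0.88) with Bt.23277.3.S1_a_at, the highest difference of the group, and at −0.02 (−0.93 to 0.88) with Bt.23277.1.A1_at. The former read 10.28 ± 0.25 in epithelium and 10.43 ± 0.23 in stroma and was higher in the stroma of 5 of 6 cows. HNRNPU and both probe sets of HNRNPK, HNRNPH3, HNRNPR, HNRNPC and HNRNPD lay between −0.41 and −0.10.

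The differences of the factors varied with the animal. Their median was −0.37, −0.30, −0.25, −0.40, −0.50 and −0.62 in cows 1 to 6, where the median of all tested probe sets was −0.18, −0.00, −0.04, −0.23, −0.27 and −0.21, so that in each cow the factors' median was the lower. The lowest stromal value was that of cow 5 or cow 6 for 52 of the 79 probe sets (65.8%), against 47.1% of all tested probe sets. These were the stromal arrays with the highest signal of the added control RNAs. Groups varied from cow to cow: the U2 particle and branch site proteins had a median of −0.98 in cow 5 and 0.10 in cow 4, and the PRPF proteins −1.07 in cow 6 and 0.05 in cow 3. The Sm core and U1 proteins, with 5 probe sets, varied most, from −0.95 in cow 3 to 1.26 in cow 5. SR proteins ranged less, from −0.50 to −0.22. The part of RNA amount or quality in this was not tested.

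**Figure D5:**
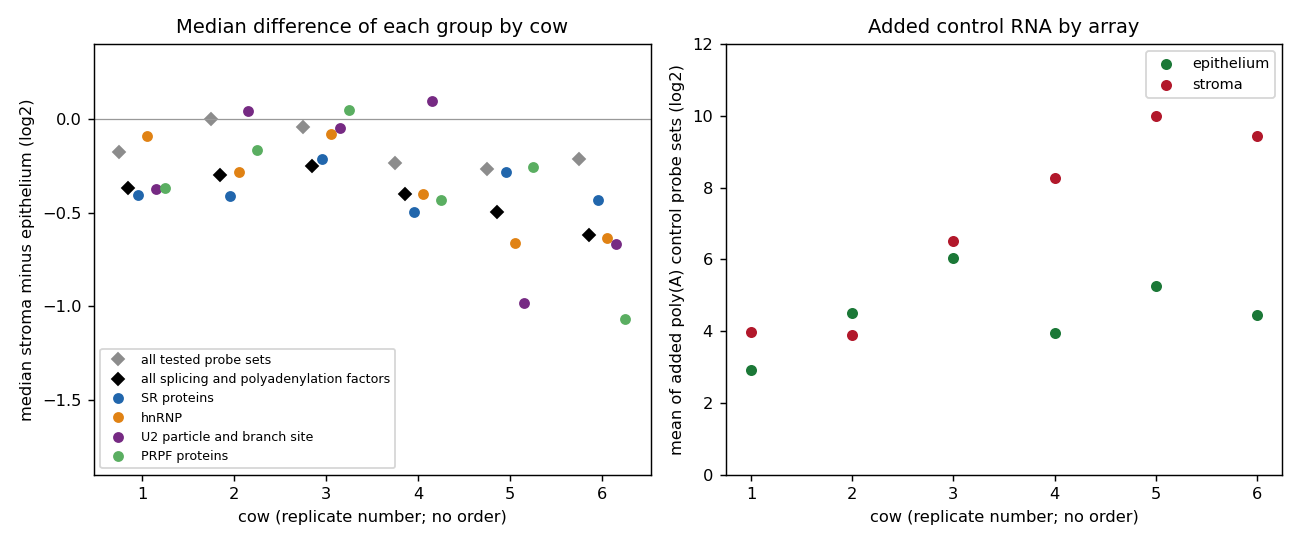
Left, median stroma minus epithelium difference (log2) in each of the 6 cows for all 10087 tested probe sets, all 79 tested splicing and polyadenylation factor probe sets and 4 of their groups; right, mean log2 value of the added polyadenylated control RNAs on each array. The factors' median lies below that of all probe sets in each cow, and the control signal is highest in the stroma of cows 5 and 6.

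For other genes of the same pathways, the brightest probe set stood for each gene. Of 55 tested genes from a list of 80 further spliceosome genes, 1 was higher in epithelium and 0 in stroma, 40 had a lower mean in stroma and the median was −0.34. The gene that passed was BUD13, of the retention and splicing complex, which read 7.04, 8.05 and 8.52 (lowest, median, highest) in epithelium and 3.07, 6.02 and 7.21 in stroma. Its difference was −2.06 (SE 0.46, adjusted p = 0.0248), 4.16-fold higher in epithelium and in the same direction in 6 of 6 cows. Of 39 tested genes from a list of 53 further splicing regulators, 1 was higher in epithelium and 0 in stroma, 33 had a lower mean in stroma and the median was −0.46. That gene was ESRP1, the splicing regulator named for its restriction to epithelia, which read 7.16 to 9.03 in epithelium and 2.48 to 4.76 in stroma, without overlap, and differed by −4.30 (SE 0.52, adjusted p = 0.00131), 19.7-fold higher in epithelium, where 2 of the 6 stromal values lay below the median of their array. Of 15 tested genes from a list of 21 further cleavage and polyadenylation genes, 0 passed in either direction, 10 had a lower mean in stroma and the median was −0.38. The shares called among all genes were 4.54% for epithelium and 4.46% for stroma, so lists this short would hold few calls at those shares. Of all tested probe sets, 58.7% had a lower mean in stroma.

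The study lists SRSF1, SRSF11, SF3B1, PRPF4 and CPSF6, together with SCAF11 and WBP4, for a network of epithelial genes built on these same arrays, so their direction here is not independent evidence. Of the 13 tested probe sets of the first 5 genes, all 13 had a lower mean in stroma, and 1, the dim CPSF6 probe set, passed. SRSF1 Bt.864.2.S1_at (−1.81 to −0.14) and SF3B1 Bt.27429.2.A1_at (−1.64 to −0.00) also had 95% intervals below 0, and the rest reached above 0. The study filtered its network genes at P under 0.05, which it lists apart from its false discovery rate. Passing here took an adjusted p under 0.05 with cow as a block. The threshold was not the only difference. At an unadjusted p by limma, PRPF4 (0.386) and the 3 probe sets of SRSF11 (0.0614 to 0.143) also missed 0.05. The filter and the model differed from the study's too, and their part in this was not tested. SCAF11, a protein that interacts with SR proteins, read 6.40, 7.96 and 9.13 (lowest, median, highest) in epithelium and 2.95, 7.34 and 8.01 in stroma, was lower in stroma in 5 of 6 cows and differed by −1.46 (SE 0.73, −3.12 to 0.19, adjusted p = 0.265). WBP4, a spliceosome-associated protein, was too dim to be tested, with means of 1.37 in epithelium and 2.39 in stroma that lie below the median of every array. Its direction was opposite to that of the other listed genes, with a difference of 1.02 (−0.13 to 2.16 in the fit without a filter). Stroma was higher in 4 of 6 cows, most in cows 2 and 3 at 4.26 and 3.75, and 4 of the 6 stromal values lay below the median of their array.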

How the data were processed

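Epithelium and stroma of 6 cows were measured on 12 Affymetrix Bovine GeneChips. The deposited values are on a log2 scale. The authors computed them by RMA, which includes quantile normalization, together with further arrays. The values ran from 0.78 to 14.4, with array medians of 2.95 to 3.08, and the number of arrays limits the precision. The study filtered by detection calls, and here the brightest 42% of the 24016 probe sets other than controls by mean over the 12 arrays, 10087 in number, were tested instead.

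Genes were named from the platform annotation, and all 93 probe sets described here matched a gene ID of the reference table with 0 symbols changed. Another 2 probe sets with several symbols, of which one fitted the rule, were not used, and 9 of the tested probe sets carry a suffix that marks possible hybridization to more than one transcript. The fits were made with limma 3.58.1 in R 4.3.3. Each had a term for tissue and a fixed term for each cow, and eBayes kept its default prior. Adjustment followed Benjamini and Hochberg, with a threshold of 0.05. The labels give both captures of an animal the same number, which sets the pairs, and the deviations of same-numbered captures from their tissue means correlated at 0.0253 to 0.202, though for cows 2 and 3 a capture of another cow correlated more highly, at 0.0278 and 0.0407. The fit was tested on simulated data with 50 known changes of each size. It called 0 of those of 1 log2, 15 of 2 log2, 31 of 3 log2 and 41 of 4 log2. A probe set that did not pass is thus not shown to be equal in the tissues. The changed probe sets were drawn from all 10087, where the median SE was 0.49 against 0.42 for the factors. All others had no change, whereas the real fit called 929, so the adjusted threshold was stricter in the simulation. The shares called can therefore be lower than for the factors.

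The genes, roles, lists and tests were chosen with earlier results of these data known. Named are probe sets past the threshold, the splicing and polyadenylation genes that the study lists for an epithelial network, the lowest, the highest and the brightest tested probe set of each role, and genes whose probe sets disagree in sign or call; further probe sets lower in stroma in all cows, steady or filling a range were named after their values were seen. The alternatives changed the block, the prior, the filter, the normalization and the cows included. No set test was made.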

Additional observations from a re-analysis of the deposited data

Results flagged for a closer look

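The values of the 6 cows in epithelium, in stroma and in the difference between them were searched for a cow far from the others. The search covered each of the 34 named probe sets and the median of all tested splicing and polyadenylation factors. Of 105 groups of 6 values, 16 held such a cow. Chance would give about 1 in 20, or 5.25, for probe sets not picked by their values. Many of the named probe sets were picked by a lowest or highest difference or by disagreement, so that rate does not apply to them. A cow that stands apart in one tissue can also stand apart in the difference, so the flagged groups are not separate events. All values are log2.

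Cow 6 was the low one in the stroma of SRSF1 Bt.864.2.S1_a_at, at 8.57 with the others at 10.38 to 10.99, and in its difference, at −2.10 with the others at −0.36 to 0.55. The same cow was low in the stroma of SNRPG, at 7.95 with the others at 9.38 to 9.84, and in its difference, at −2.25 beside −1.01 to −0.38. It was also low in the difference of SRSF11 Bt.9041.1.S1_at, at −1.96 beside −0.63 to −0.12.

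Cow 5 was low in the stroma of PRPF38B Bt.15677.1.A1_at, at 5.32 with the others at 8.25 to 9.68, and in its difference, at −3.39 beside −0.62 to 0.86, while cow 2 was low in the epithelium of that probe set, at 7.39 with the others at 8.50 to 9.10. Cow 5 was high in the stroma of SNRPD3, at 7.62 beside 4.54 to 5.59, and in the epithelium of WBP4, at 1.70 beside 1.23 to 1.37, all of which are below the array medians.

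Cow 4 was low in the stroma of CPSF6 Bt.1004.1.A1_at, at 3.80 beside 6.55 to 7.25, and in its difference, at −4.12 beside −0.90 to 0.21. Cow 3 was low in the differences of PRPF8 Bt.13659.1.S1_at, at −3.16 beside −1.15 to −0.06, and of CSTF3, at −2.55 beside −0.99 to −0.19, and high in the epithelium of SRSF11 Bt.16306.1.A1_at, at 7.50 beside 4.61 to 5.51. Cow 2 was low in the epithelium of U2AF1, at 2.88 beside 4.88 to 5.86.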

How the results depend on the processing

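The count of splicing and polyadenylation factor probe sets higher in epithelium was 1 without the replicate block, as with it, and 0 among the brightest 5000 probe sets, which leave out the dim CPSF6 probe set, and after centring, where the cause was not tested; leaving out 1 cow at a time gave 0 to 2. It was 1 without cows 5 and 6 too, where SRSF11 passed and CPSF6 did not. The count higher in stroma was 0 under the 15 alternatives run for it, and both counts over genes were 0 when the mean of a gene's probe sets was used. The median difference of −0.37 was −0.20 after centring, −0.18 without cows 5 and 6 and −0.47 to −0.29 leaving out 1 cow at a time. Over all tested probe sets the calls higher in epithelium and in stroma were 474 and 455, 463 and 481 without the block, 359 and 515 after centring and 246 and 360 without cows 5 and 6. The direction turned for 10 of the named probe sets, whose differences ran from −0.50 to 0.06. It turned after quantile normalization for PRPF18 Bt.17154.2.A1_at (0.087), HNRNPDL Bt.23277.1.A1_at (0.0064) and SRSF4 Bt.28464.2.S1_at (0.015), after centring for the same 3 (each 0.15) and SRSF1 Bt.864.1.A1_at (0.057), and without cows 5 and 6 for PRPF38B Bt.15677.1.A1_at (0.14), PRPF18 Bt.17154.2.A1_at (0.38), SF3B1 Bt.27429.1.S1_at (0.17), SRSF4 Bt.28464.2.S1_at (0.40) and SRSF1 Bt.864.2.S1_a_at (0.10). Leaving out 1 cow at a time gave −0.60 to 0.25 for PRPF38B, −0.58 to 0.50 for PRPF18 Bt.17154.2.A1_at, −0.31 to 0.20 for PRPF8 Bt.21016.1.A1_at, −0.32 to 0.14 for HNRNPDL Bt.23277.1.A1_at, −0.019 to 0.088 for HNRNPF Bt.23314.1.A1_s_at, −0.39 to 0.21 for SRSF4, −0.25 to 0.24 for CPSF1, −0.32 to 0.093 for SRSF1 Bt.864.1.A1_at and −0.49 to 0.037 for SRSF1 Bt.864.2.S1_a_at. Calls of named probe sets changed for CPSF6 and SRSF11 alone, as given with their values.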
